A study of Mus musculus with 3 samples.

Results

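The 10 genes described here encode growth factors that act on fibroblasts, vessels and macrophages (Pdgfa, Pdgfb, Pdgfc, Igf1, Vegfa, Hbegf, Areg and Csf1) and 2 receptor chains through which macrophages take growth signals (Csf1r and Csf2ra). They were chosen by name from the gene table, which lists 32286 genes, and all 10 were found in it. They were measured by droplet 3' single-cell RNA sequencing in cells washed from the airspaces of mice given bleomycin by the airway, a drug whose lung injury serves as a model of fibrosis. The first group was wild-type (WT) mice that received the kinase inhibitor GW5074. The second was knockout (KO) mice without Clec7a, the gene of the beta-glucan receptor Dectin-1, given the vehicle DMSO, and the third was WT mice given DMSO. All 3 groups had received bleomycin 14 days before lavage, and no group without bleomycin was part of the series. Lavage fluid of each group was pooled over its mice, sorted for CD11b+ or CD11c+ cells and made into 1 library. The number, strain, age and sex of the mice, the dose of GW5074 and the exons removed in the KO mice were not given in the sources used here. With 1 pool per group, no test between groups was possible, and the treatment or genotype, the pool and the run cannot be told apart.

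Macrophages repair tissue in part by secreting such factors. The platelet-derived growth factor (PDGF) chains drive the division and migration of fibroblasts, with PDGF-A acting through receptor alpha, PDGF-B through both receptors, and PDGF-C through receptor alpha after a protease has removed its inhibitory domain. IGF-1 supports the survival of mesenchymal cells and is a known product of lung macrophages, while CSF1, the ligand of the receptor CSF1R, keeps mononuclear phagocytes alive, and the GM-CSF receptor, of which Csf2ra encodes the alpha chain, is needed for the maturation of alveolar macrophages.

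After removal of 17, 36 and 50 barcodes, the WT GW5074, KO DMSO and WT DMSO libraries held 17792, 11642 and 13454 cells, with median depths of 2276, 2937 and 2438.5 UMIs (unique molecular identifiers, each 1 counted RNA molecule). Between 80 and 154 barcodes were shared by any 2 libraries, at most 1.14% of a library. Levels are the UMIs of a gene summed over the cells of a class in 1 library, per 1000000 UMIs of that class (CPM), with 95% exact Poisson intervals, and ratios carry 95% exact conditional binomial intervals. All intervals and floors cover counting error only. A gene is called higher or lower where the ratio is at least 1.5-fold and its interval excludes 1, among genes that reached 10 CPM in either library and 20 UMIs over the pair. In bulk sums of this kind, fewer cells expressing a gene and less RNA per cell cannot be told apart. Cells formed 19 clusters, and 7 classes named by their markers had at least 100 cells in every library. Unnamed clusters held 24.5%, 20.4% and 18.5% of the WT GW5074, KO DMSO and WT DMSO cells. The 13 markers of resident alveolar macrophages summed to 8985, 9465 and 8861 CPM in the class named for them, and the 12 of monocyte-derived macrophages to 27726, 27197 and 24820 CPM in theirs. Clec7a checked the genotype label: it was at 892 CPM in WT GW5074, 15.5 CPM in KO DMSO and 856 CPM in WT DMSO resident alveolar macrophage-like cells. Neutrophil-like cells made up 0.68%, 2.20% and 22.9% of the WT GW5074, KO DMSO and WT DMSO libraries.

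Promoters are shown for 3 members picked by hand for their unlike class patterns in the sections that follow. These are Igf1, found at its highest in macrophage classes, Csf1, at its highest in neutrophil-like cells, and Csf2ra, spread over all myeloid classes. Each sequence is the 250 bases before the RefSeq start, from RefSeq on build GRCm38.p6 and read 5' to 3' on the gene's strand. They lie at chr10:87860861-87861110 (plus strand) for Igf1, chr3:107760470-107760719 (minus strand) for Csf1 and chr19:61228419-61228668 (minus strand) for Csf2ra. The gene positions given in the sections that follow come from another annotation. By them Igf1 begins at 87858265, so its window lies inside the gene. Csf2ra begins at 61228429 on the minus strand, so its window overlaps the gene, and its marked matches lie partly in that overlap. Capitals mark matches on either strand to GAGGAAG, a core bound by the myeloid factor PU.1, to TGANTCA, a loose AP-1-type pattern, or to TTGCNNAA, a C/EBP-type site. N stands for any base, so a TGANTCA match need not be an AP-1 site.
Igf1: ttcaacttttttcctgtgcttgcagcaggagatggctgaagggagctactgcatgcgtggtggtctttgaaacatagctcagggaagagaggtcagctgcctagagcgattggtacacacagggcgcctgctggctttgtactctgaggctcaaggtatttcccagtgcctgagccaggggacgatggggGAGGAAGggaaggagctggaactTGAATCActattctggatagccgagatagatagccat
Csf1: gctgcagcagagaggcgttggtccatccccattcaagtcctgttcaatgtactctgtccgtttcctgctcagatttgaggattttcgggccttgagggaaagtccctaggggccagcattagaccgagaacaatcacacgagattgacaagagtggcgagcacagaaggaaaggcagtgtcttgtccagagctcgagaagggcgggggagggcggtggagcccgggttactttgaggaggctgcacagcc
Csf2ra: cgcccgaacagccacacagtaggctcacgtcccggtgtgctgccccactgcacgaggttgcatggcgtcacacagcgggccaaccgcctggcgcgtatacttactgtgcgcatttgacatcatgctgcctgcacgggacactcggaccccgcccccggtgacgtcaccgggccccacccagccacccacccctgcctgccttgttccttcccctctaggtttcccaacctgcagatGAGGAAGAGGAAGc
The Igf1 window held 1 GAGGAAG and 1 TGANTCA match (TGAATCA), the Csf2ra window held 2 overlapping GAGGAAG matches, and the Csf1 window held none of these 3 motifs. Among 32851 promoter windows of the same length, 10.6% held GAGGAAG, 6.75% TGANTCA and 9.56% TTGCNNAA. Of the other members with a window, Areg had 1 GAGGAAG match, and the windows of Pdgfa, Pdgfc and Vegfa had no match to these letters.

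The receptor genes were the most abundant members in both macrophage classes of each library. Csf1r (ENSMUSG00000024621; mm10 chromosome 18, 61100598 to 61132149, plus strand) stood at 385 CPM (374 to 396) in WT GW5074, 341 CPM (329 to 355) in KO DMSO and 359 CPM (343 to 375) in WT DMSO monocyte-derived macrophage-like cells. Resident alveolar macrophage-like cells had 229, 208 and 209 CPM of Csf1r in the same libraries, a lower level than in the monocyte-derived class with no overlap of intervals in any library. A Csf1r UMI was found in 62.4%, 66.7% and 70.9% of monocyte-derived and, in the resident class, in 41.2%, 41.2% and 46.8% of cells. After thinning of each cell to 1000 UMIs, which left out 40 to 267 cells per class and library, these shares were 32.5%, 29.8% and 30.2%, and 20.1%, 18.2% and 17.3%, so the WT GW5074 share was lowest before and highest after thinning in the monocyte-derived class (medians of 2682, 3536 and 3783 UMIs in the monocyte-derived class). T cells, which should lack the receptor, gave the background. A T cell-like set cut at a finer cluster resolution had a Csf1r UMI in 2.33%, 1.14% and 4.84% of 386, 352 and 455 cells, at medians of 687.5, 1012.5 and 1137 UMIs.

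Within the monocyte-derived class Csf1r and Igf1 pointed to different clusters. Mmp12 and complement C1q genes were among the leading genes of both of its clusters, 5 and 8. Cluster 5, with Cx3cr1 and Ccr2 also among them, had 462, 403 and 442 CPM of Csf1r in WT GW5074, KO DMSO and WT DMSO. This was more than in cluster 8, with Apoe, Pf4 and Spp1 also among them (350, 303 and 308 CPM). Igf1 ran the other way, at 48.5, 49.8 and 33.6 CPM in cluster 5 and 267, 280 and 271 CPM in cluster 8. In the resident class, cluster 4 (Car4 and Ear2) had 263, 248 and 230 CPM of Csf1r and cluster 3 (Krt19 and Htr2c) had 175, 152 and 152 CPM. Each of these 3 orders held in all 3 libraries without overlap of intervals. The members had been left out of the genes used for clustering, but clusters are cut from the same cells, so these orders describe the clusters and are no test.

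Csf2ra (ENSMUSG00000059326; mm10 chromosome 19, 61223957 to 61228429, minus strand) was the most evenly spread member. Its level was 268, 249 and 257 CPM in resident and 283, 270 and 273 CPM in monocyte-derived macrophage-like cells of the WT GW5074, KO DMSO and WT DMSO libraries. Neutrophil-like cells had 243, 186 and 212 CPM, conventional dendritic cell 1-like cells 224, 185 and 200 CPM, and migratory dendritic cell-like cells, the lowest myeloid class, 114, 84.4 and 90.1 CPM. T cell-like cells had 161, 124 and 118 CPM of Csf2ra. Cut at the finer resolution, they had 28.0, 7.38 and 35.5 CPM, from 9, 3 and 23 UMIs. Csf1r, by contrast, fell off steeply in 2 dendritic classes that kept Csf2ra, at 37.2, 19.7 and 19.4 CPM in conventional dendritic cell 1-like and 18.3, 7.61 and 12.3 CPM in migratory dendritic cell-like cells. In conventional dendritic cell 2-like cells Csf1r was at 217, 190 and 147 CPM.

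**Figure D1:**
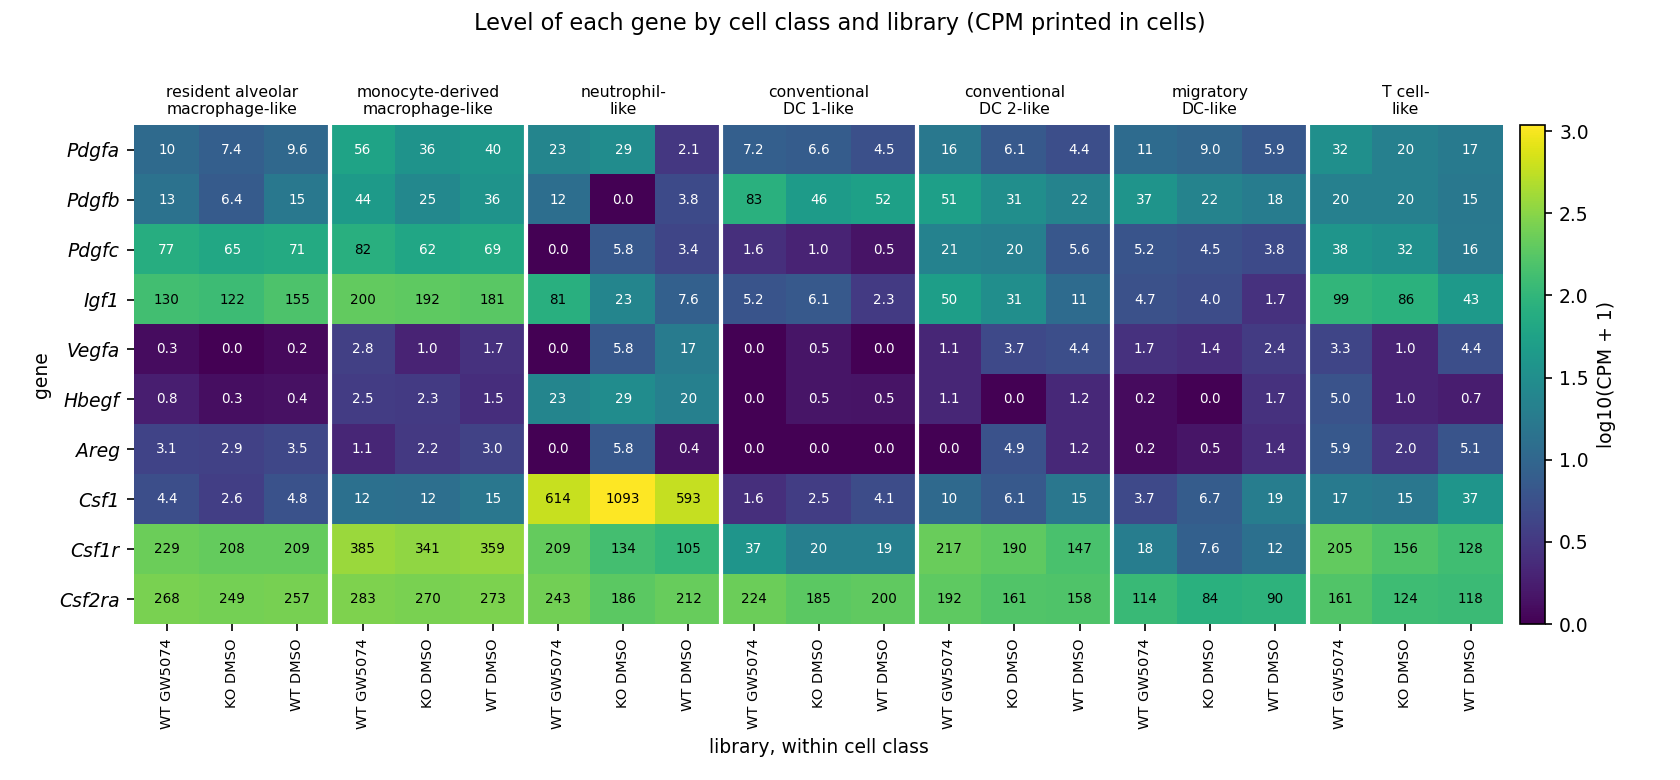
Level of each of the 10 genes (rows) in each cell class and library (columns), as CPM of the class, with colour on a log10(CPM + 1) scale and the CPM printed in each cell. Csf1 peaks in neutrophil-like cells (614, 1093 and 593 CPM in WT GW5074, KO DMSO and WT DMSO), Igf1 and Pdgfc in both macrophage classes, Pdgfb in conventional dendritic cell 1-like cells, and Csf2ra is found in every myeloid class.

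Among the ligands, Igf1 and Pdgfc were the main macrophage products. Igf1 (ENSMUSG00000020053; mm10 chromosome 10, 87858265 to 87937042, plus strand) reached 200 CPM (192 to 208) in WT GW5074, 192 CPM (183 to 202) in KO DMSO and 181 CPM (170 to 193) in WT DMSO monocyte-derived macrophage-like cells. In resident alveolar macrophage-like cells the same libraries had 130 CPM (123 to 137), 122 CPM (115 to 129) and 155 CPM (145 to 166), below the monocyte-derived class in each library. The order holds for class sums only: cluster 5 of the monocyte-derived class, at 48.5, 49.8 and 33.6 CPM, was below the resident class in each library. Pdgfc (ENSMUSG00000028019; mm10 chromosome 3, 81036416 to 81214040, plus strand) did not separate the classes: it was at 76.7, 64.5 and 71.0 CPM in resident and at 82.5, 62.3 and 68.9 CPM in monocyte-derived macrophage-like cells, with overlapping intervals. In conventional dendritic cell 1-like cells Igf1 was at 5.17, 6.07 and 2.25 CPM and Pdgfc at 1.55, 1.01 and 0.45 CPM.

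Pdgfa (ENSMUSG00000025856; mm10 chromosome 5, 138976014 to 138997370, minus strand) was a gene of the monocyte-derived class, at 56.5 CPM (52.3 to 60.8) in WT GW5074, 35.8 CPM (31.7 to 40.2) in KO DMSO and 39.9 CPM (34.7 to 45.6) in WT DMSO cells. Resident alveolar macrophage-like cells had 10.2, 7.38 and 9.63 CPM, and within them cluster 3 held 14, 7 and 1 UMIs of Pdgfa, at most 3.23 CPM. Most macrophages showed no PDGF transcript at this depth: no UMI of Pdgfa, Pdgfb or Pdgfc was counted in 62.5%, 68.4% and 61.6% of monocyte-derived and, in the resident class, 78.9%, 81.4% and 72.8% of cells. UMIs of 2 of these genes met in 6.18%, 4.49% and 7.67% of monocyte-derived cells, and of all 3 in 0.509%, 0.275% and 0.726%. These shares move with depth.

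Pdgfb (ENSMUSG00000000489; mm10 chromosome 15, 79995874 to 80014977, minus strand) had its highest level outside the macrophages. Conventional dendritic cell 1-like cells, which present antigen to CD8 T cells, had 83.2 CPM (70.9 to 97.1) in WT GW5074, 45.5 CPM (36.6 to 56.0) in KO DMSO and 51.8 CPM (42.8 to 62.2) in WT DMSO. A Pdgfb UMI was found in 16.6%, 13.7% and 19.0% of these cells, and in 8.45%, 5.16% and 4.46% after thinning to 1000 UMIs, against 1.55%, 1.42% and 1.54% of T cell-like cells cut at the finer resolution. Monocyte-derived macrophage-like cells came next in WT DMSO, at 35.7 CPM (30.9 to 41.2). In WT GW5074 they had 44.5 CPM and conventional dendritic cell 2-like cells 51.3 CPM, with overlapping intervals. In KO DMSO the intervals of neighbours in this order overlapped down to T cell-like cells, and resident alveolar macrophage-like cells were below them all except neutrophil-like cells, which had 0 of 171929 UMIs (floor of 3 UMIs, 17.4 CPM). This order is of class sums. Within the monocyte-derived class, cluster 5 had 56.8, 30.3 and 52.4 CPM in WT GW5074, KO DMSO and WT DMSO. Cluster 8 had 39.0, 22.4 and 25.6 CPM. In WT DMSO cluster 5 thus lay beside conventional dendritic cell 1-like cells.

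The remaining ligands were near the detection limit in macrophages. Vegfa (ENSMUSG00000023951; mm10 chromosome 17, 46016993 to 46032369, minus strand), the main growth factor of vessel walls, had 3, 0 and 1 UMIs in 4436, 3667 and 1426 resident alveolar macrophage-like cells, where 3 UMIs come to 0.263, 0.28 and 0.578 CPM. The monocyte-derived class held 34, 8 and 9 UMIs of Vegfa (2.79, 1.02 and 1.68 CPM), and the highest level was 17.2 CPM (12.3 to 23.3) in WT DMSO neutrophil-like cells. Hbegf and Areg encode ligands of the EGF receptor. Hbegf (ENSMUSG00000024486; mm10 chromosome 18, 36504927 to 36515805, minus strand) was at 23.2, 29.1 and 20.1 CPM in neutrophil-like cells, from 2, 5 and 48 UMIs, and at most 2.46 CPM in either macrophage class. Areg (ENSMUSG00000029378; mm10 chromosome 5, 91139599 to 91148432, plus strand) stayed at or below 5.86 CPM in all 7 classes and was at 3.06, 2.90 and 3.47 CPM in resident alveolar macrophage-like cells. Neither Hbegf nor Areg reached the filter for a ratio in a macrophage class.

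The first comparison asked what GW5074 did to these genes in macrophages. None of the 6 members that passed the filter was called in resident alveolar macrophage-like cells, where 1.76% of 8289 genes were called in either direction, and none of the 7 that passed was called in monocyte-derived macrophage-like cells, where 1.62% of 8213 genes were. The median log2 ratio of the members was 0.07 in the resident and 0.15 in the monocyte-derived class, beside −0.01 and 0.00 for all genes tested. Csf1r had ratios of 1.10 (1.02 to 1.18) in the resident and 1.07 (1.02 to 1.13) in the monocyte-derived class, and Csf2ra had ratios of 1.04 (0.98 to 1.11) and 1.04 (0.98 to 1.10). The interval of Pdgfa in the monocyte-derived class reached past the size rule, with a ratio of 1.42 (1.21 to 1.66), and it was called when cells were thinned to 1000 or 500 UMIs or genes were centred within each library before clustering (log2 ratios of 0.62, 0.79 and 0.83). Pdgfb was at 44.5 CPM in WT GW5074 and 35.7 CPM in WT DMSO monocyte-derived cells, a ratio of 1.245 (1.053 to 1.475). In cluster 8 alone, where 1 of 7 members and 2.71% of 8107 genes were called, Pdgfb was 1.53-fold higher with GW5074 (1.20 to 1.96).

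**Figure D2:**
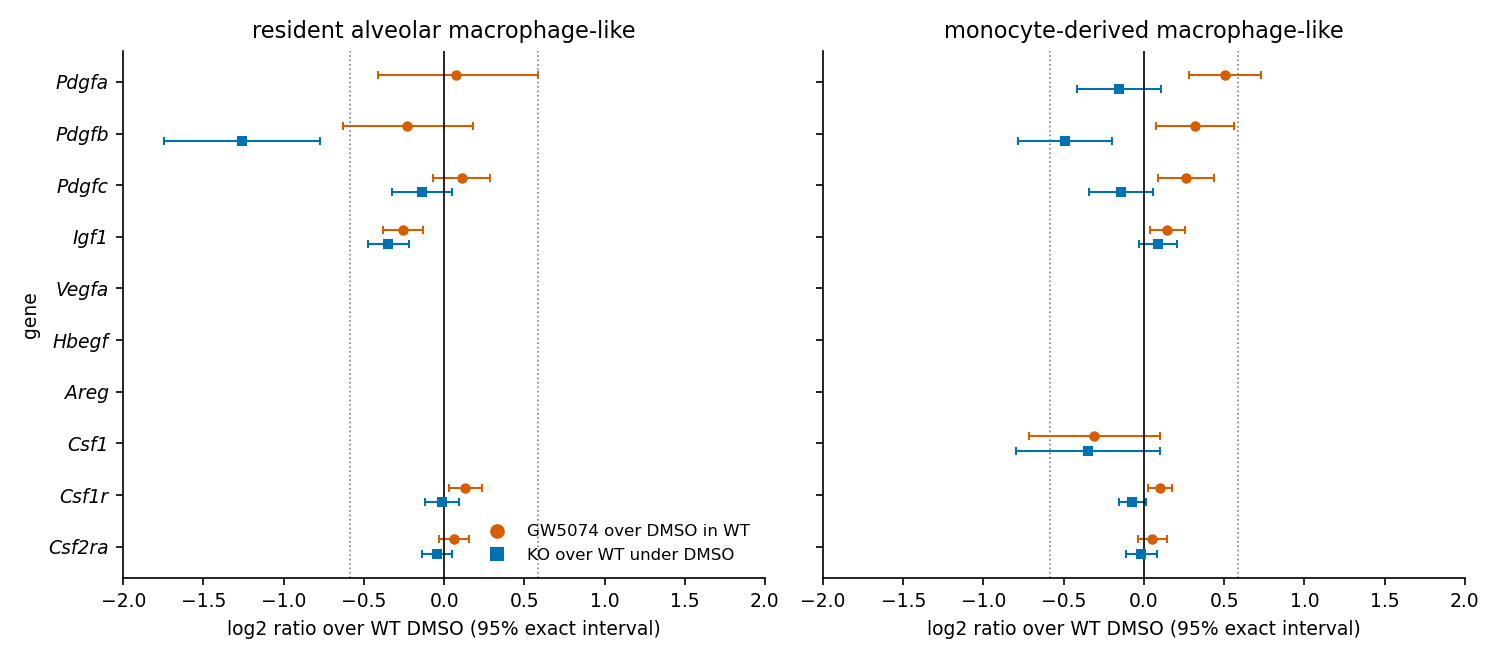
Log2 ratio over WT DMSO of each gene (rows) that passed the filter in resident (left) and monocyte-derived (right) macrophage-like cells, circles for GW5074 over DMSO in WT and squares for KO over WT under DMSO, with 95% exact intervals of counting error and dotted lines at 1.5-fold. Pdgfb in the KO library of the resident class lies beyond the line at −1.26, and both receptor genes lie close to 0.

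The second comparison asked what loss of Clec7a did. In resident alveolar macrophage-like cells 1 of 5 members that passed was called, Pdgfb, where 6.8% of 8298 genes were called in either direction and 4.06% as lower. Pdgfb was at 6.44 CPM (5.01 to 8.15, 69 UMIs) in KO DMSO and 15.4 CPM (12.2 to 19.2, 80 UMIs) in WT DMSO, 2.39-fold lower in the KO library (1.71 to 3.35). Its level in WT GW5074 was 13.1 CPM (11.1 to 15.4). A Pdgfb UMI was found in 1.80% of KO DMSO, 3.18% of WT GW5074 and 5.26% of WT DMSO cells of this class, and in 0.60%, 1.34% and 1.82% after thinning to 1000 UMIs, so the KO library was lowest on each scale although its cells were deeper than those of WT GW5074. These are low levels: the T cell-like set cut at the finer resolution, the background, had 12.3, 18.7 and 10.8 CPM of Pdgfb in KO DMSO, WT GW5074 and WT DMSO, from 5, 6 and 7 UMIs, and a Pdgfb UMI in 1.42%, 1.55% and 1.54% of cells at lower depth. The resident class was below this background level in KO DMSO and WT GW5074, and its thinned shares were below the background shares in these 2 libraries and near it in WT DMSO, so Pdgfb in resident cells was not told apart from background. The call was kept under all 15 alternatives, with log2 ratios of −1.89 to −1.06, and also met a stricter size rule of 2-fold. Counts of alternatives here and below leave out that stricter rule, and the class calls that did not reach it are listed in the closing section. The resident class was made up of clusters 3 and 4 in unequal shares, with 50.0% of KO DMSO and 68.3% of WT DMSO cells in cluster 4. Inside cluster 4 alone, where 1 of 6 members and 8.27% of 8262 genes were called, Pdgfb was at 8.23 and 18.5 CPM in KO DMSO and WT DMSO, 2.25-fold lower in the KO library (1.55 to 3.29), and in cluster 3, with 18 and 9 UMIs, it did not reach the filter. Summed neutrophil markers moved with the libraries too, at 344 CPM in KO DMSO, 311 CPM in WT GW5074 and 590 CPM in WT DMSO (9 or all of 10 markers detected in each). Pdgfb was at 0 CPM (floor 17.4 CPM) in KO DMSO and 3.78 CPM in WT DMSO neutrophil-like cells. The part of neutrophil RNA in the difference was not tested.

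In monocyte-derived macrophage-like cells 0 of 7 members were called between KO and WT, where 6.51% of 8174 genes were. Pdgfb stood 1.41-fold below WT DMSO (1.15 to 1.72), at 25.4 CPM (22.0 to 29.2) in KO DMSO and 35.7 CPM (30.9 to 41.2) in WT DMSO, short of the size rule. The clusters of this class differed in their values. In cluster 5 Pdgfb was at 30.3 and 52.4 CPM, 1.73-fold lower in the KO library (1.30 to 2.32), and in cluster 8 it was at 22.4 and 25.6 CPM. Cluster 1, led by Fstl1 and Scgb1a1 and left unnamed for too few markers, had 2 of 7 members and 10.8% of 8396 genes called, with 8.37 CPM of Pdgfb in KO DMSO and 17.9 CPM in WT DMSO, 2.13-fold lower (1.249 to 3.65). Other transcripts moved with it in cluster 1: the club cell gene Scgb1a1 was at 22.3 CPM in KO DMSO and 502 CPM in WT DMSO, and S100a9, the partner of S100a8 in calprotectin, at 10.0 and 139 CPM. Their part in the Pdgfb value was not tested. The difference between clusters was not tested. In cluster 5, where 2 of 7 members and 10.2% of 8402 genes were called, Csf1 was also lower in the KO library, by 2.94-fold (1.46 to 6.23) on 13 and 26 UMIs. In cluster 1 it was higher in the KO library, at 24.5 CPM in KO DMSO and 14.4 CPM in WT DMSO on 88 and 25 UMIs, 1.70-fold (1.08 to 2.78). In cluster 3, where 1 of 4 members and 10.6% of 8417 genes were called, Igf1 was 1.64-fold lower (1.37 to 1.95), at 88.0 CPM in KO DMSO and 144 CPM in WT DMSO. Over the whole resident class Igf1 stood 1.27-fold below WT DMSO.

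**Figure D3:**
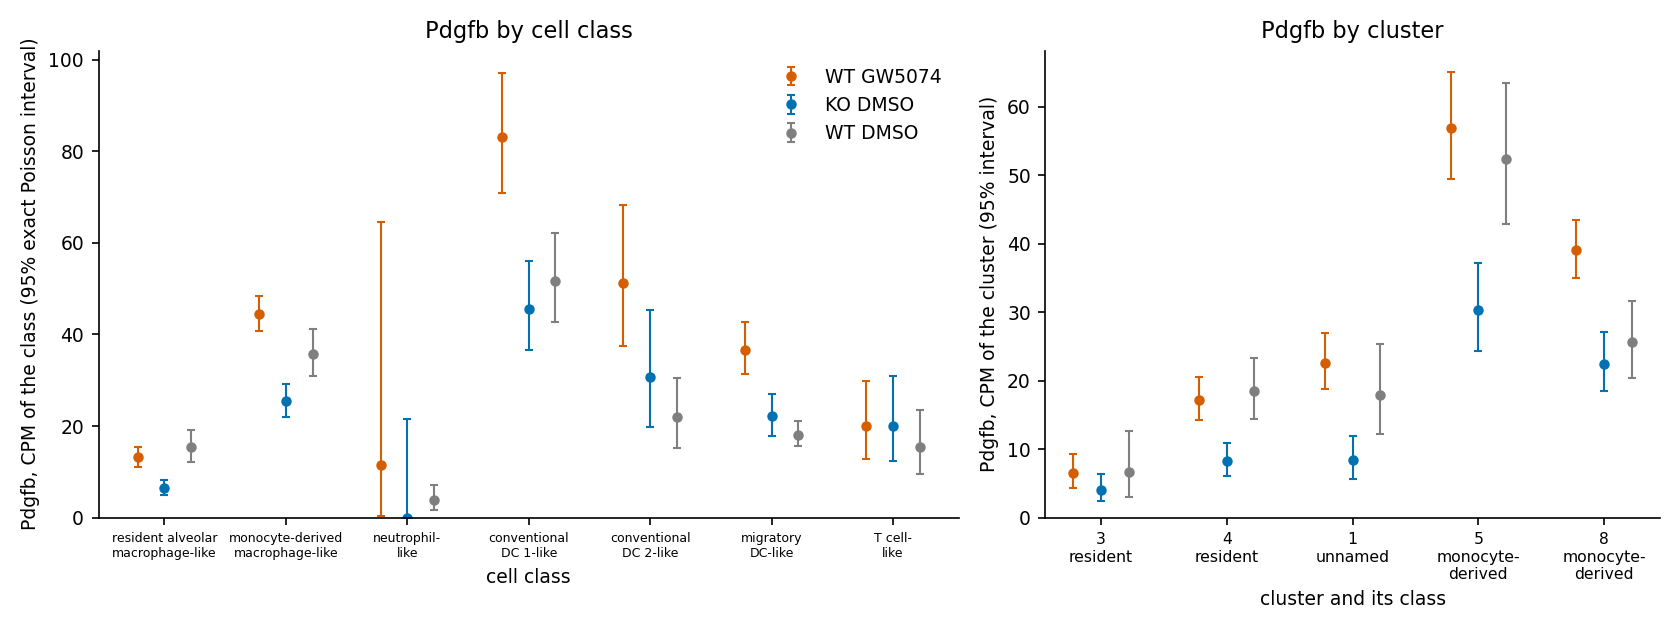
Level of Pdgfb in CPM with 95% exact Poisson intervals in 7 cell classes (left) and 5 clusters, 4 of the macrophage classes and the unnamed cluster 1 (right), in WT GW5074, KO DMSO and WT DMSO. The KO DMSO point is the lowest in each of the 5 clusters, and the WT GW5074 point is the highest in each of the 3 dendritic classes.

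Outside the macrophages Pdgfb was higher with GW5074 in all 3 dendritic classes tested. Among conventional dendritic cell 1-like cells, where 2 of 3 members that passed were called and 4.73% of 8072 genes were, it was 1.61-fold higher (1.26 to 2.06). Among conventional dendritic cell 2-like cells, where 4 of 7 members and 14.5% of 8804 genes were called, it was at 51.3 CPM (37.5 to 68.4) in WT GW5074 and 21.9 CPM (15.2 to 30.4) in WT DMSO, 2.35-fold higher (1.48 to 3.75). In migratory dendritic cell-like cells, where 3 of 5 members and 9.75% of 7855 genes were called, it was at 36.7 CPM (31.4 to 42.6) in WT GW5074 and 18.1 CPM (15.6 to 21.0) in WT DMSO, 2.03-fold higher (1.63 to 2.51). The migratory class differed in makeup, since cluster 11 held 1.41% of its WT GW5074, 0.827% of its KO DMSO and 42.1% of its WT DMSO cells. In cluster 9, the largest of the class in WT GW5074, Pdgfb was still 1.74-fold higher (1.252 to 2.44), where 3 of 4 members and 4.85% of 7808 genes were called, and in cluster 10 it was at 37.3 and 26.7 CPM in WT GW5074 and WT DMSO. Macrophage transcripts moved with these values. Lyz2, the lysozyme gene, was at 1163, 7031 and 1151 CPM in WT GW5074, at 1065, 7278 and 1076 CPM in KO DMSO and at 406, 1979 and 462 CPM in WT DMSO cells of the conventional 1-like, conventional 2-like and migratory classes. The complement gene C1qa was at 33.6, 324 and 31.3 CPM in WT GW5074 and 10.4, 79.3 and 16.6 CPM in WT DMSO. Pdgfb itself was at 44.5 CPM in monocyte-derived macrophage-like cells of WT GW5074, beside 83.2, 51.3 and 36.7 CPM in the conventional 1-like, conventional 2-like and migratory classes there. The part of macrophage RNA in the Pdgfb values was not tested. In both conventional classes 14 of 15 alternatives kept the call, which was lost after thinning to 500 UMIs, where the log2 ratios were 0.84 and 0.53. The 2-fold size rule was met in the conventional 2-like and migratory classes and not in the conventional 1-like class. With KO, Pdgfb was at 45.5, 30.7 and 22.1 CPM in conventional 1-like, conventional 2-like and migratory cells. The ratios over WT DMSO were 0.88 (0.66 to 1.17), 1.40 (0.81 to 2.41) and 1.22 (0.94 to 1.58), and none was called.

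Csf1r was 1.92-fold higher with GW5074 (1.30 to 2.87) in conventional dendritic cell 1-like cells, on 72 UMIs in WT GW5074 and 43 UMIs in WT DMSO, a call that was lost at both thinning depths. Macrophages are rich in Csf1r, and Lyz2 and C1qa were also above WT DMSO in this class (1163 against 406 CPM and 33.6 against 10.4 CPM), a part that was not tested. In the KO library 0 of 3 members were called in this class, where 13.7% of 7992 genes were. Csf1r in migratory dendritic cell-like cells was 1.62-fold lower in the KO library (1.09 to 2.47), where 2 of 4 members and 22.5% of 7813 genes were called, on 32 UMIs in KO DMSO and 120 UMIs in WT DMSO. That call was lost in 9 of 15 alternatives, among them both other scalings (−0.54 and −0.50). In this class the median log2 ratio of all genes was −0.19, and median-of-ratios scaling moved it by 0.19. Pdgfa was 1.77-fold higher with GW5074 in the migratory class (1.19 to 2.64), but its log2 ratio was 0.06 in cluster 9 alone, 0.25 and 0.14 after thinning to 1000 and 500 UMIs, and 0.78 without the highest doublet scores, none of them called.

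Csf1 (ENSMUSG00000014599; mm10 chromosome 3, 107741048 to 107760469, minus strand), the ligand of CSF1R, had its highest level in neutrophil-like cells. Neutrophil-like cells had 614 CPM (460 to 803, 53 UMIs in 121 cells) in WT GW5074, 1093 CPM (943 to 1261, 188 UMIs in 256 cells) in KO DMSO and 593 CPM (562 to 624, 1412 UMIs in 3080 cells) in WT DMSO. Of the other 6 classes described, T cell-like cells came next at 16.7, 15.05 and 37.4 CPM, and the monocyte-derived class was at 12.1, 11.8 and 14.97 CPM, with intervals that overlapped those of T cell-like cells in WT GW5074 and KO DMSO. Resident alveolar macrophage-like cells had 4.38, 2.61 and 4.81 CPM. B cell-like cells, too few for the comparisons at 95, 60 and 336 cells, had 41.9, 112 and 73.8 CPM of Csf1 from 5, 11 and 49 UMIs. A Csf1 UMI was found in 29.8%, 37.5% and 30.6% of neutrophil-like cells at medians of only 575, 600.5 and 644 UMIs, and in 24.8%, 32.4% and 23.7% after thinning to 500 UMIs. In conventional dendritic cell 1-like cells, at medians of 2318, 3433 and 4190.5 UMIs, the share was 0.243%, 0.677% and 1.69%. A UMI of the receptor gene Csf1r was found in 10.7%, 7.81% and 6.98% of neutrophil-like cells, and UMIs of both genes in 4.96%, 3.91% and 2.60%.

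Between KO and WT, 1 of 6 members that passed was called in neutrophil-like cells, Csf1, where 13.4% of 8541 genes were called in either direction and 6.64% as higher. It was 1.85-fold higher in the KO library over the whole class (1.58 to 2.15), short of the 2-fold size rule, and 14 of 15 alternatives kept the call. The call was lost when neutrophil-like cells were split. At the finer resolution they fell into finer cluster 0, led by S100a9, S100a8 and Stfa2l1, and finer cluster 1, in which Ccl3, Ccl4 and Hdc were among the leading genes. Finer cluster 1 held 91.7% of the neutrophil-like cells of WT GW5074, 92.2% of those of KO DMSO and 11.9% of those of WT DMSO. Inside it Csf1 was at 609 CPM in WT GW5074, 1134 CPM in KO DMSO and 1021 CPM in WT DMSO, from 49, 180 and 261 UMIs. The KO ratio there was 1.11 (0.91 to 1.35), not called, and Csf1 was 1.68-fold lower with GW5074 (1.23 to 2.32). With GW5074 Ccl3 was also 1.64-fold and Chil3 6.07-fold lower in that finer cluster, while Hdc and S100a8 were not called. No share of all genes called is given for it. In finer cluster 0 Csf1 was at 603 CPM in KO DMSO, from 8 UMIs in 20 cells, and 541 CPM in WT DMSO, from 1142 UMIs, a ratio of 1.12 (0.48 to 2.21). The lectin gene Chil3 was at 268 CPM in KO DMSO and 6312 CPM in WT DMSO over the class, and the chemokine gene Ccl3 at 1472 and 406 CPM. In this class the calprotectin gene S100a8, a neutrophil marker, stood at 21666 CPM in KO DMSO and 33540 CPM in WT DMSO, and the neutrophil markers summed to 37254 and 60228 CPM, all 10 detected in both. Their part in the difference of Csf1 was not tested. With GW5074 the Csf1 ratio was 1.04 (0.77 to 1.36) over the whole class, on the 53 UMIs of that library. The unnamed cluster 6, with S100a8 and macrophage transcripts together, had 169 CPM of Csf1 in WT GW5074, 156 CPM in KO DMSO and 75.1 CPM in WT DMSO, 2.25-fold (1.80 to 2.79) and 2.07-fold higher (1.57 to 2.69), and S100a8 at 3855, 3071 and 4537 CPM. In that cluster 3 of 7 members were called in each comparison, beside 7.78% of 8678 genes with GW5074 and 11.1% of 8676 genes with KO. Cluster 6 had 8 of 10 neutrophil markers raised and stayed unnamed under a rule on depth chosen after seeing the data. Its 107, 67 and 395 Csf1 UMIs in WT GW5074, KO DMSO and WT DMSO are outside the neutrophil-like values.

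The cells that held the Csf1 transcripts differed between libraries. Neutrophil-like cells held 8.85% of the Csf1 UMIs of WT GW5074, 32.9% of KO DMSO and 61.2% of WT DMSO, and these shares leave out cluster 6 with its raised neutrophil markers. Monocyte-derived macrophage-like cells held 24.5%, 16.1% and 3.46%, and the unnamed cluster 1 held 20.2%, 15.4% and 1.08%. Summed over all kept cells, Csf1 was 4.48-fold lower with GW5074 (4.09 to 4.91) and 3.60-fold lower in the KO library (3.28 to 3.95), at 13.2, 16.4 and 59.0 CPM, while in neither macrophage class was it called. Over all kept cells 6 of 7 members were called with GW5074, where 10.8% of 8752 genes were, and 2 of 7 in the KO library, where 15.5% of 8731 genes were. Igf1, Pdgfa, Pdgfb, Pdgfc and Csf1r were the members called higher with GW5074 on this scale, by 1.51-fold to 1.89-fold, and Igf1 with KO, by 1.502-fold. With the main settings none of these genes was called higher within a macrophage class. With GW5074, Pdgfb was called higher in cluster 8 alone (1.53-fold), and Pdgfa had a ratio of 1.42 (1.21 to 1.66) in the monocyte-derived class. The share of cells in the 2 macrophage classes differed between the libraries, at 24.9% and 23.2% of WT GW5074, 31.5% and 18.7% of KO DMSO and 10.6% and 9.21% of WT DMSO for the resident and monocyte-derived class. The part of these cell shares in the sums over all kept cells was not tested.

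**Figure D4:**
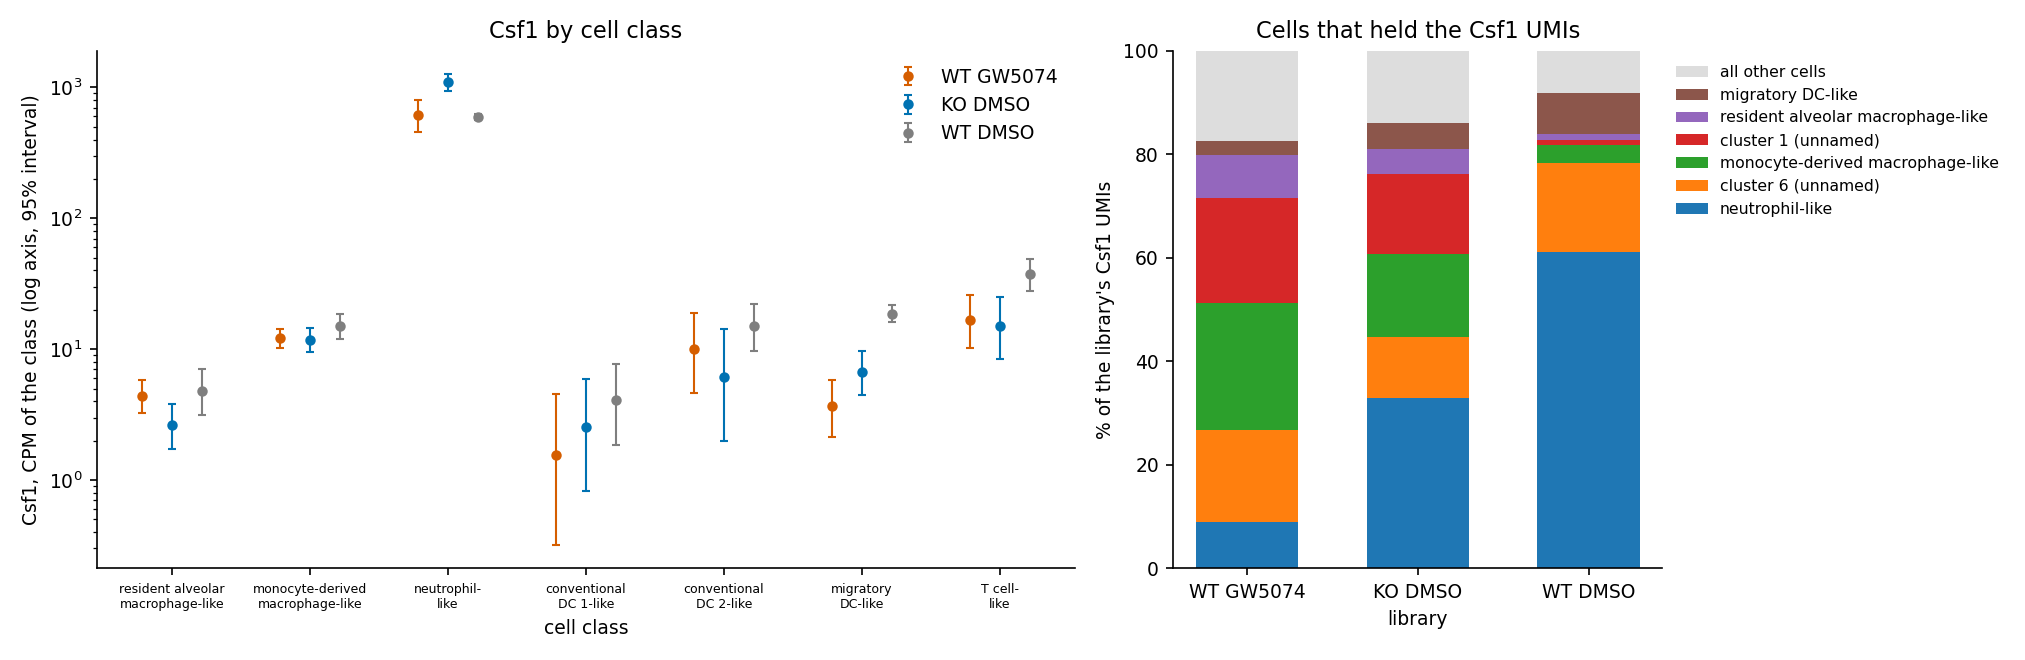
Left, level of Csf1 in CPM on a log axis with 95% exact Poisson intervals by cell class and library. Right, share of each library's Csf1 UMIs held by neutrophil-like cells, 2 unnamed clusters, 3 named classes and all other cells: neutrophil-like cells held 8.85% in WT GW5074, 32.9% in KO DMSO and 61.2% in WT DMSO.

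Csf1 was lower in 2 classes of low level. In migratory dendritic cell-like cells it was at 3.65 CPM (2.13 to 5.84) in WT GW5074, 6.66 CPM (4.42 to 9.62) in KO DMSO and 18.6 CPM (16.0 to 21.6) in WT DMSO, 5.11-fold (3.10 to 8.96) and 2.80-fold lower (1.87 to 4.33). The clusters of this class, whose shares differ between libraries as given above, did not all do so. In cluster 9 Csf1 was at 3.83, 3.68 and 10.6 CPM on 10, 9 and 31 UMIs, 2.76-fold lower with GW5074 (1.32 to 6.30) and 2.87-fold lower in the KO library (1.33 to 6.85). In cluster 11 it was at 76.3, 381 and 32.0 CPM on 5, 14 and 131 UMIs in 38, 14 and 1365 cells. Csf1 there was 11.9-fold higher in the KO library (6.34 to 20.7), with a GW5074 ratio of 2.38 (0.76 to 5.71). The WT GW5074 and KO DMSO cells of cluster 11 are fewer than required of a class. No share of all genes called is given for that cluster. Over the class, both calls were lost at the finer cluster resolution and without the highest doublet scores, where the log2 ratios were −1.46 and −1.29 for GW5074 and −1.21 and −0.60 for KO. In T cell-like cells, where 5 of 7 members were called with GW5074 and 3 of 7 with KO, beside 8.99% of 9183 and 13.3% of 9089 genes, Csf1 was 2.23-fold (1.31 to 3.96) and 2.48-fold lower (1.38 to 4.76). The call with GW5074 was lost in 5 of 15 alternatives, with a log2 ratio of −0.04 under a direct marker gate, and that with KO in 3 of 15. Neutrophil transcripts moved with both differences. S100a8 was at 82.7, 48.0 and 848 CPM in the migratory class and at 282, 146 and 1771 CPM in T cell-like cells of WT GW5074, KO DMSO and WT DMSO. The 10 neutrophil markers summed to 145, 76.3 and 1545 CPM in the migratory class (8, 8 and 10 detected) and to 483, 255 and 3102 CPM in the T cell-like class (9, 7 and 10 detected). The part of neutrophil RNA in these Csf1 values was not tested.

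Igf1 moved together with macrophage transcripts in classes that are not macrophages. In T cell-like cells it was at 98.7, 86.3 and 42.5 CPM in WT GW5074, KO DMSO and WT DMSO, 2.32-fold (1.68 to 3.24) and 2.03-fold higher (1.44 to 2.88), and Pdgfc was at 37.6, 32.1 and 16.1 CPM, 2.34-fold and 1.99-fold higher. In conventional dendritic cell 2-like cells Igf1 was at 50.2, 30.7 and 10.6 CPM, 4.72-fold and 2.89-fold higher on 45, 25 and 17 UMIs, with 2 of 6 members and 18.6% of 8638 genes called in the KO library. Both of these Igf1 calls were lost in 4 of 15 alternatives, and the direction turned with GW5074 without the highest doublet scores (log2 ratio −0.51) and with KO under the direct marker gate (−1.80). Lyz2, the lysozyme gene of macrophages and one of their most abundant transcripts, was at 14545, 16038 and 7043 CPM in T cell-like and at 7031, 7278 and 1979 CPM in conventional dendritic cell 2-like cells. The 12 markers of monocyte-derived macrophages summed to 12282, 11517 and 6998 CPM in T cell-like cells, with all 12 detected. In conventional dendritic cell 2-like cells they summed to 5511, 4504 and 1866 CPM, with 12, 12 and 11 detected. Per 1000 UMIs of Lyz2, Igf1 had 6.79, 5.38 and 6.04 UMIs in T cell-like cells, 7.13, 4.22 and 5.36 in conventional dendritic cell 2-like cells and 6.56, 4.58 and 6.61 in monocyte-derived macrophage-like cells. Cut at the finer resolution, T cell-like cells had 9.34, 9.84 and 10.8 CPM of Igf1, from 3, 4 and 7 UMIs. These UMIs were too few to pass the filter for a ratio, so no call was possible there. Another finer cluster of 579 cells with T cell markers stayed unnamed for its doublet score and is outside this set. The part of macrophage RNA in these Igf1 and Pdgfc values was not tested.

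**Figure D5:**
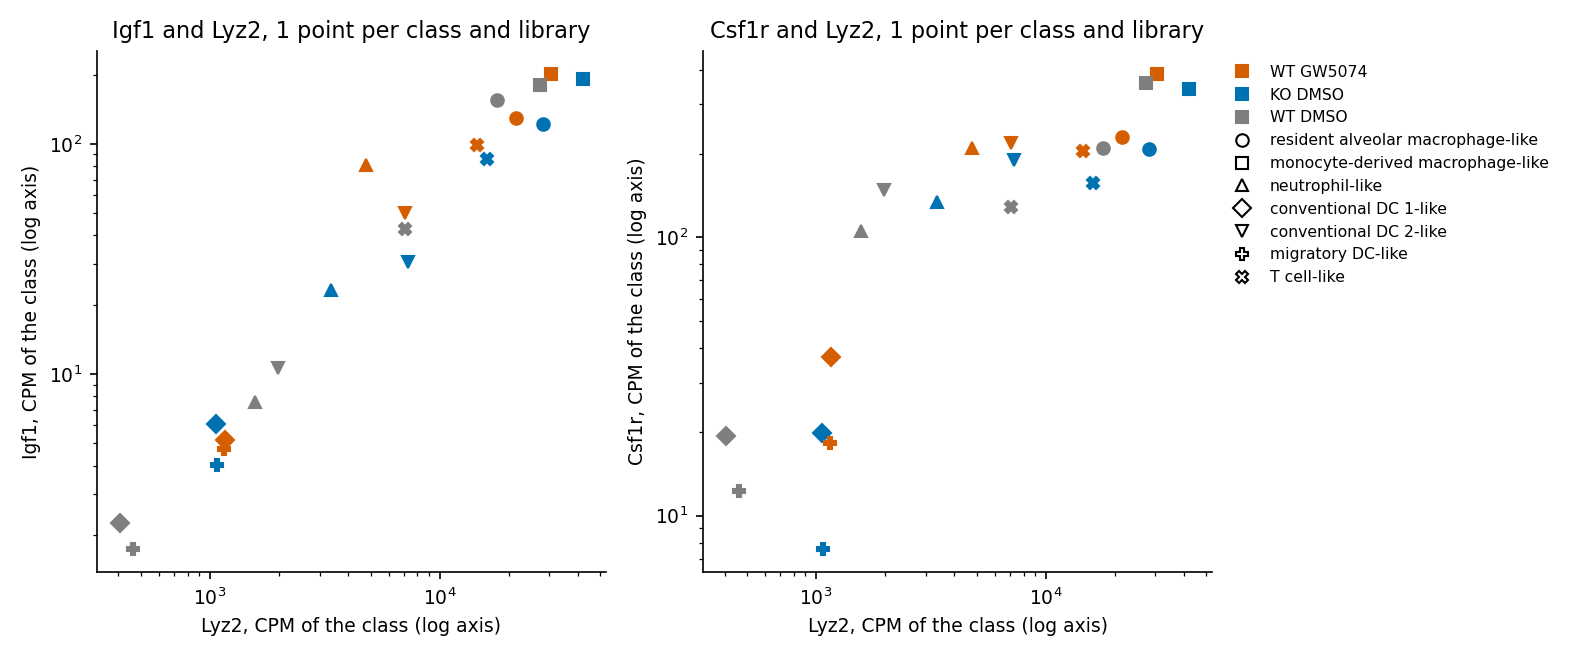
Igf1 (left) and Csf1r (right) against Lyz2, each in CPM of the class on log axes, with 1 point per class and library, colours for WT GW5074, KO DMSO and WT DMSO and shapes for the 7 classes. Igf1 lies near 1 line with Lyz2 in most classes, from 1.74 CPM in WT DMSO migratory dendritic cell-like cells to 200 CPM in WT GW5074 monocyte-derived macrophage-like cells, while Csf1r per 1000 UMIs of Lyz2 is 43.7, 39.7 and 67.0 in neutrophil-like and 12.6, 8.12 and 13.1 in monocyte-derived macrophage-like cells.

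With GW5074, 2 of 6 members that passed were called in neutrophil-like cells, where 8.24% of 8561 genes were, both on few UMIs. Igf1 had 7 UMIs in WT GW5074 and 18 in WT DMSO, at 81.1 and 7.55 CPM, beside Lyz2 at 4772 and 1572 CPM, and lost its call in 4 of 15 alternatives. Csf1r had 18 and 251 UMIs, at 209 CPM (124 to 330) and 105 CPM (92.7 to 119), 1.98-fold higher (1.15 to 3.19), and lost its call in 4 of 15 alternatives. Both calls were lost in finer cluster 1 alone. TMM scaling, a trimmed mean of gene ratios, moved the median of all genes in this comparison by −0.19.

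The partners of these ligands and receptors came from 6 lists of 95 genes in all. Of the PDGF pathway list (6 genes), Furin, a protease that cleaves growth factor precursors, was the only one that passed the filter in macrophages, at 202, 173 and 191 CPM in resident alveolar macrophage-like cells. The receptor genes Pdgfra and Pdgfrb were at most at 0.193 CPM there. Of the CSF list (23 genes), 17 passed in the resident and 18 in the monocyte-derived class. Csf2rb, the signalling chain that pairs with Csf2ra, was at 612, 582 and 543 CPM in the resident and 404, 377 and 362 CPM in the monocyte-derived class of WT GW5074, KO DMSO and WT DMSO. With GW5074 no gene of that list was called in either class, where 1.76% and 1.62% of all genes tested were. With KO, 6.8% of all genes tested were called in the resident and 6.51% in the monocyte-derived class. In the KO library, Pparg, a nuclear receptor that GM-CSF induces in alveolar macrophages, was higher in both classes, by 1.51-fold (1.42 to 1.62) in the resident and 1.55-fold (1.37 to 1.76) in the monocyte-derived class. Bhlhe40, a transcription factor of alveolar macrophage proliferation, was lower in both, by 1.70-fold (1.55 to 1.88) and 1.59-fold (1.44 to 1.76). Il3ra, the IL-3 receptor alpha chain, was lower in the resident class, by 1.62-fold (1.17 to 2.22), and the difference between the classes was not tested. The median log2 ratio of the list's members was −0.07 in the resident and −0.02 in the monocyte-derived class with KO, beside −0.05 and −0.08 for all genes.

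Of the VEGF and hypoxia list (14 genes), 7 passed in each macrophage class. Flt1, which encodes VEGF receptor 1, was higher with GW5074 in the resident and the monocyte-derived class, by 1.62-fold (1.46 to 1.80) and 1.52-fold (1.16 to 2.02), and in the resident class of the KO library, by 1.70-fold (1.53 to 1.89). Its resident levels were 140 CPM in WT GW5074, 147 CPM in KO DMSO and 86.4 CPM in WT DMSO, and both comparisons share that WT DMSO library. In other clusterings tried, Flt1 was among the leading genes of the Krt19 and Htr2c cells, and cluster 3, led by those genes, held 45.9%, 50.0% and 31.7% of the class in WT GW5074, KO DMSO and WT DMSO. Inside cluster 3 Flt1 was at 258, 262 and 189 CPM, with ratios of 1.37 (1.19 to 1.57) and 1.39 (1.21 to 1.60), and inside cluster 4 at 67.8, 62.1 and 50.3 CPM, with ratios of 1.35 (1.14 to 1.60) and 1.24 (1.04 to 1.48), so that neither cluster alone gave a call. In the KO library Vegfb was 1.53-fold higher and Epas1, a hypoxia-inducible factor, 1.63-fold lower in the resident class, and Bnip3 1.64-fold lower in the monocyte-derived class. Of the EGF family list (18 genes), 6 passed in each class. Rhbdf2, which encodes iRhom2, a partner of the shedding protease ADAM17, was lower in the KO library in both classes, by 1.68-fold (1.49 to 1.91) and 1.53-fold (1.31 to 1.78), and Adam17 itself was at 113 and 122 CPM in KO DMSO and WT DMSO resident cells. No gene of this list was called with GW5074, beside the same 1.76% and 1.62% of all genes. Of the IGF list (14 genes), 3 passed in the resident and 4 in the monocyte-derived class. None was called in either comparison, beside 1.76% and 1.62% of all genes with GW5074 and 6.8% and 6.51% with KO. The same shares stand beside the calls of the VEGF and EGF lists.

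Of 20 other growth factors known from macrophages, 8 passed in the resident and 9 in the monocyte-derived class with GW5074, and 9 and 8 with KO. Gdf15, a stress-induced member of the TGF-beta family, was lower with GW5074 in both classes, by 1.62-fold (1.33 to 1.96) and 1.77-fold (1.43 to 2.18). In the monocyte-derived class Angptl4 was 1.58-fold lower and Gas6 1.51-fold higher with GW5074. In the KO library Osm, the cytokine oncostatin M, was lower in both classes, by 2.21-fold (1.85 to 2.65) and 1.64-fold (1.36 to 1.98), and so was Tgfbi, a matrix protein induced by TGF-beta, by 1.78-fold (1.72 to 1.84) and 1.57-fold (1.52 to 1.62). Tgfbi was at 674 CPM in KO DMSO and 1197 CPM in WT DMSO resident cells. Tgfb2 was 7.16-fold higher (3.51 to 17.0) in KO resident alveolar macrophage-like cells, at 11.0 CPM in KO DMSO and 1.54 CPM in WT DMSO. The median log2 ratio of the list's members with KO was −0.14 in the resident and −0.22 in the monocyte-derived class, beside −0.05 and −0.08 for all genes. In these classes 1.76% and 1.62% of all genes were called with GW5074 and 6.8% and 6.51% with KO. Of the list genes only Flt1 is given by cluster here. The part of cluster shares, which differ between the libraries, in the other list calls was not tested.

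By Pearson correlation of log2(CPM + 10) over the 21 points of 7 classes in 3 libraries, the genes most like each member were found among 8943 genes. Igf1 was most like Itgb5 (r = 0.981), Spp1 (0.978) and Trem2 (0.976), Pdgfc like Cd22 (0.982), Pdgfa like Pf4 (0.91) and Pdgfb like Plekho1 (0.923) and Anpep (0.907). Csf1 was most like H2-Q10 (0.983), Hdc (0.98) and Ccl3 (0.979), and Hbegf like Mirt2 (0.977) and Csf1 itself (0.972). Csf1r was most like Ctsa (0.964), Csf2ra like Bnip2 (0.921) and Vegfa like Fbxw2 (0.93), while Areg, with no level above 5.86 CPM, had no gene above Ubl4a at 0.764. The points share libraries and cells, so these values describe the classes.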

How the data were processed

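Single-cell 3' RNA was counted in 3 libraries, 1 pool per group. The deposited files hold whole-number UMI counts per gene and cell, made with Cell Ranger 2.1.1 on mm10, per the submitters' processing notes. The labels name both a SeekOne chip and 10x Genomics. The 10 members and the lists were chosen with earlier results of these data known. Barcodes under 200 genes or over 20% mitochondrial UMIs were removed. Total UMIs per library were 45462817 in WT GW5074, 34859676 in KO DMSO and 39180331 in WT DMSO. Cells were clustered with scanpy 1.11.5 (2000 variable genes without the members, 30 components, 15 neighbours, Leiden resolution 1). A cluster was named from fixed marker lists when at least 3 markers and 25% of a list were raised at least 2-fold. It stayed unnamed when another class or cycling genes led it, when its doublet score was high, or when it was over 3 times as deep as the shallowest cluster of its name, a rule chosen after seeing the data. Scrublet marked 0 cells, so the caller had not worked and no doublets were removed. Counts were summed per class and library and divided by the class total. Intervals are exact Poisson, conditional binomial and Clopper-Pearson, at 95%. With 1 library per group no p-value was computed, the ratio rule is one of size, and both comparisons share the WT DMSO library. The interval script was tested on simulated data. Alternatives were other scalings (median of ratios, and TMM from edgeR 4.0.16 in R 4.3.3), filters, resolutions, gates and thinning, with thinning to 500 UMIs and a finer neutrophil cluster added after seeing the data. All members are described in each class, the 3 most alike genes were found for each, and list genes are named when called in a macrophage class or among the most abundant of their list. Gene positions are from GENCODE M21, and 99.6% of gene IDs matched. Results that need items withheld for evaluation are not reported here.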

Additional observations from a re-analysis of the deposited data

Results flagged for a closer look

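Csf1 went in opposite directions between the KO DMSO and WT DMSO libraries in different classes. Its log2 ratio of KO over WT was 0.88 in neutrophil-like cells, −1.49 in migratory dendritic cell-like cells and −1.31 in T cell-like cells. These 3 values were picked out because classes differed in sign, and the difference between classes was not tested. The call in neutrophil-like cells was kept in 14 of 15 alternatives, that in the migratory class in 13 of 15 and that in T cell-like cells in 12 of 15. These counts leave out the 2-fold size rule, which the call in neutrophil-like cells did not reach. The classes differed in makeup between the libraries. At the finer cluster resolution, 92.2% of KO DMSO and 11.9% of WT DMSO neutrophil-like cells were in finer cluster 1, where the Csf1 ratio of KO over WT was 1.11 (0.91 to 1.35) and was not called. Cluster 11 held 0.827% of KO DMSO and 42.1% of WT DMSO migratory cells. Csf1 there was 11.9-fold higher in the KO library (6.34 to 20.7), on 14 and 131 UMIs in 14 and 1365 cells. The KO DMSO cells of this cluster are fewer than required of a class, and no share of all genes called is given for it. By its markers, neutrophil was the next class after migratory dendritic cell in cluster 11. The part of neutrophil RNA in its Csf1 value was not tested.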

How the results depend on the processing

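No paired analysis was possible because each group is 1 library. The counts of called members in the macrophage classes are small, and 1 gene moves them. With the main settings 0 members were called with GW5074 and 1 with KO in resident, and 0 and 0 in monocyte-derived macrophage-like cells. With genes centred within library these 4 counts were 2, 2, 3 and 1, and with a direct marker gate 1, 2, 1 and 1. In the monocyte-derived class 1 member was called with GW5074 and 1 with KO after thinning to 1000 UMIs, to 500 UMIs, and under the lower size rule. There 1 was called with KO by the mean of CPM per cell, and 1 with GW5074 without a filter on low counts and in the largest cluster alone. In the resident class 2 were called with KO under the lower size rule and without the filter. The cause was not tested. Of the other values, 1190 stayed within the limits set, 116 moved and 6 changed sign. Igf1 in T cell-like cells had log2 ratios of −0.21 with GW5074 and −0.13 with KO at resolution 2, and −0.63 with GW5074 under the direct gate. The Igf1 ratios at resolution 2 rest on 3, 4 and 7 UMIs in WT GW5074, KO DMSO and WT DMSO, too few to pass the filter. Csf1r in T cell-like cells had −1.03 with GW5074 at resolution 2. Igf1 in conventional dendritic cell 2-like cells had −1.80 with KO under the direct gate and −0.51 with GW5074 without the highest doublet scores. Under the 2-fold size rule, several class calls were lost. With GW5074, Pdgfb was no longer called in conventional dendritic cell 1-like cells, nor Pdgfa in migratory dendritic cell-like and T cell-like cells. Csf1r was no longer called with GW5074 in neutrophil-like, conventional dendritic cell 1-like and T cell-like cells. With KO, the lost calls were Csf1 in neutrophil-like, Csf1r in migratory dendritic cell-like and Pdgfc in T cell-like cells. In finer neutrophil cluster 1 alone, an alternative added after seeing the data, Csf1 had log2 ratios of 0.15 with KO, no longer called, and −0.75 with GW5074, called there only. No share of all genes called is given for that finer cluster. Neutrophil-like cells of WT GW5074 held 86330 UMIs, where 3 UMIs come to 34.8 CPM.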
